A study of Tachycineta bicolor with 30 samples.

Results

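The transcripts described here encode the enzymes that put acetyl groups on histones, those that take them off, and the subunits of the complexes in which these enzymes act, as measured in the brain of female tree swallows. They were found by a search of the BLAST title of each transcript for 10 phrases, which cover the acetyltransferases and deacetylases of histones, the sirtuins, the NSL subunits and microspherule protein, the MORF4 name, the adapters of SAGA, and the MTA and p66 subunits of NuRD. Of 19478 transcripts 67 matched, under 44 gene names. All 67 passed the filter on low values, although 6 of them were at 0 in at least 1 library. Of the 44 gene names 12 had more than 1 row, together 35 of the 67, and rows of the same gene may share or split reads. Among the 44, a second row titled as GATAD2B counts as a name of its own, and it was not summed with GATAD2B. A name such as isoform X5 is that of the best BLAST hit and not of a swallow transcript. HDAC1, HDAC6 and HDAC8 matched no row and were not analysed here.

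Acetyl groups on the lysines of histone tails loosen the packing of DNA and are read by bromodomain proteins, and their presence at promoters and enhancers goes with active transcription. Acetyltransferases of the MYST, GNAT and p300 families write them from acetyl-CoA, mostly inside large complexes such as NSL, NuA4, SAGA and ATAC. Zinc-dependent deacetylases (classes I, II and IV) and the NAD-dependent sirtuins remove them, the class I enzymes as part of complexes such as NuRD, SIN3 and CoREST. In the brain of mammals this balance is known for its part in lasting changes of gene expression after experience, and class IIa deacetylases move between nucleus and cytoplasm with neuronal activity.

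The libraries cover 3 regions at 2 stages of breeding. The 5 females of incubation (INC) and those of territory establishment (TE), called Early in the labels, were adult, free-living and untreated. Each library is of 1 female, with 4 libraries of TE in each region. The regions were the ventromedial telencephalon (VmT), cut by hand as a small piece that should hold nucleus taeniae, the hypothalamus (HYPO) with the preoptic area, and the hindbrain (HB). The HYPO and HB libraries of TE were of females 85674, 85689, 85691 and 85694. In the VmT the labels of the third TE library carry the numbers of different females, both of TE, and it is called unresolved. Among these numbers is that of the TE female that the paper removed as an outlier. The paper reports low RNA quality for her HB and HYPO and for no other sample. Whether the unresolved library is hers cannot be told from the labels. Values are listed in the order of females 85757, 85774, 85840, 85889 and 85899 for INC, and 85674, 85689, 85691 (unresolved in the VmT) and 85694 for TE.

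Values are normalized counts, that is, reads scaled by the size factor of the library with no division by length, so levels are compared between libraries and not between genes. Reads recovered from the deposited values summed to 6001315 to 13710385 in each of the 27 libraries, with a median of 8308433. These sums are lower than the mapped read pairs per sample that the paper reports, and the reason was not examined. A log2 fold change is on the scale of log2(normalized count + 1), INC minus TE, so that a positive value is higher in INC. It is a difference of mean log2 values, so it can lie above or below the log2 ratio of the means. The added 1 shrinks it for low transcripts. A transcript was called differentially expressed at a limma adjusted p of at most 0.05 over the 19473 transcripts tested. In pieces of bulk tissue, fewer cells of a type and less RNA per cell cannot be told apart.

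Markers of the regions went with the labels of the VmT and HB. Summed over 4 telencephalon markers, VmT libraries had 1164 to 2304 normalized counts, against 198 to 761 in HYPO and HB libraries, and 6 hindbrain markers summed to 784 to 1640.0 in the HB and at most 9.86 in the others. The sum of the 3 hypothalamus markers measured overlapped between regions (28.6 to 473 in the HYPO, 35.3 to 182 in the VmT, 53.2 to 134 in the HB). Markers also differed between the stages of the VmT. The mean log2 level of 19 thalamus and midbrain markers (the score below) was 5.73 to 6.36 in INC, against 4.25, 3.39, 5.66 and 5.62 in TE, so that every TE library lay below every INC library. The sum of 7 neuron markers was 6872 to 8157 in INC and 5291 to 6342 in TE, and that of 7 astrocyte markers 38896 to 47085 in INC and 39793 to 42041 in TE. Of the thalamus and midbrain markers 3 (SOX14, GATA3 and SHOX2) were called higher in INC, as were TUBB3 of neurons and KCNJ10 of astrocytes. TUBB3 made up much of the difference in the neuron sum. It averaged 2246 in INC and 1195 in TE, where the sum averaged 7499 and 5858. The other neuron markers were not called between stages in the VmT. The score and the neuron sum were higher in every INC library than in every TE library, the direction of the members called in the VmT below. The range of the astrocyte sum in INC spanned that in TE. Beyond the fits with the score as a covariate, the part of these markers in the VmT stage results was not tested.

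In the VmT 8 of the 67 members were higher in INC and 0 were lower. That is 11.9%, against 3.1% of all transcripts called higher and 0.426% called lower. They were KANSL2, GATAD2B, MCRS1, HDAC4, TADA3, HDAC5, a second transcript titled as GATAD2B (here GATAD2B-like) and KAT7, so that subunits of acetyltransferase complexes and of deacetylase complexes both stood among them. The paper had reported histone acetylation among the processes of genes higher in INC in the VmT of these females. The members were chosen with earlier results of these data known, so the share of 11.9% is not independent of that report. The median log2 fold change of the 67 was 0.04, against -0.01 over all transcripts. In the HYPO 1 member, KANSL2, was lower in INC (1.49%, against 0.293% of all transcripts lower) and 0 were higher (0.221% of all transcripts). In the HB 0 members were called by limma, where 0.00514% of all transcripts were, and 0 by edgeR or DESeq2. Of the 67 members 2 had an unadjusted limma p under 0.05 there, as did 647 of 19473 transcripts. The libraries of the stages did not overlap in the VmT for 6 members higher in INC and 1 lower (8.96% and 1.49%, against 3.07% and 1.31% of all transcripts). In the HYPO they did not overlap for 2 members higher in INC and 6 lower (2.99% and 8.96%, against 1.82% and 3.74%).

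**Figure D1:**
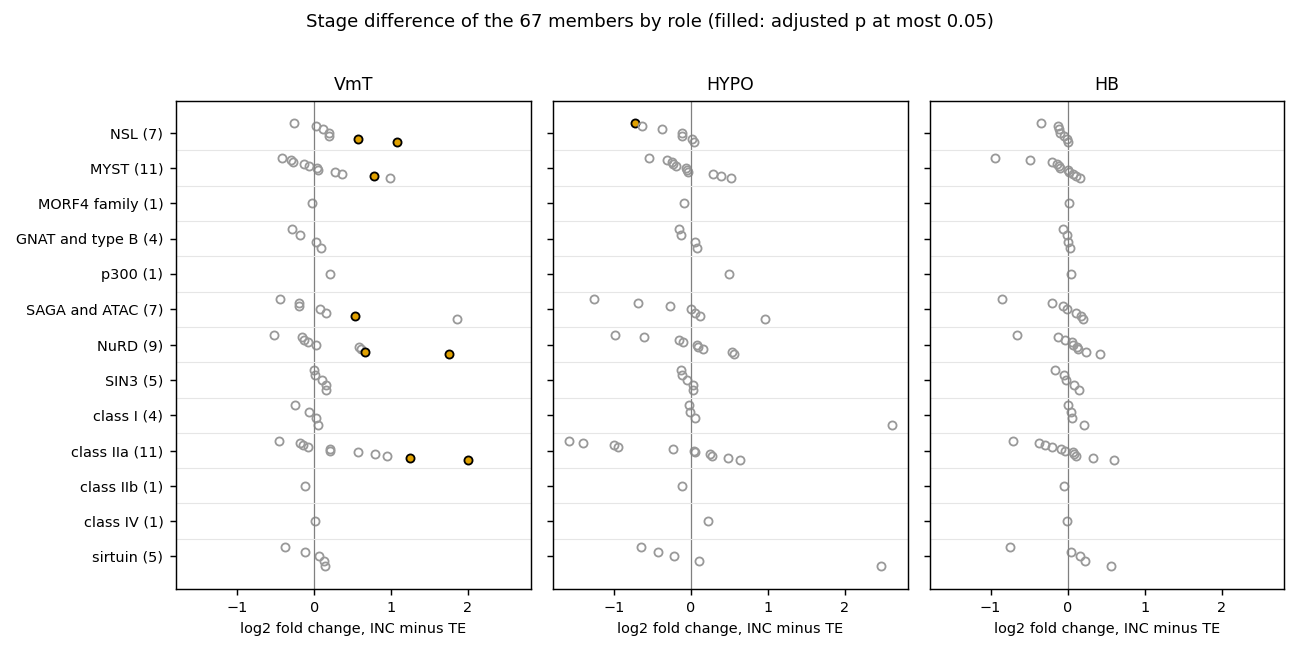
Log2 fold change between stages (INC minus TE) of each of the 67 members in the VmT, HYPO and HB, in rows by role with the number of transcripts in brackets. Filled points have a limma adjusted p of at most 0.05: 8 to the right of 0 in the VmT, 1 to the left of 0 in the HYPO and 0 in the HB.

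The 8 VmT calls rest on 1 spread estimated over all 6 groups. Fitted without the other regions, 0 of the 67 were called, with the same fold changes, against 0.0154% of all transcripts. With the score as a covariate (a second covariate below is the summed level of transcripts with a mean under 50) 2 remained, KANSL2 (log2 fold change 0.99, adjusted p = 0.0403) and GATAD2B (0.68, adjusted p = 0.0403), against 0.226% of all transcripts. Adjusted for the summed low transcripts 4 members were higher and 1 was lower, against 2.4% and 1.4% of all transcripts, so the calls were no longer all in the same direction. The lower member was MTA3 isoform X1 (-0.96, adjusted p = 0.0455). The count was 4 without the unresolved TE library (2.18% of all transcripts), 5 without the TE library of female 85689 (1.77%), and 5 without the INC library of female 85889 (2.03%) or of female 85899 (2.6%). The unresolved library had the lowest TE value in 5 of the 8 members called in the VmT. In checks added once the values were known, 4 members were called without the TE libraries of females 85674 and 85689, which had the lowest scores (0.565% of all transcripts), and 4 without the INC libraries of females 85889 and 85899 (1.24%).

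The NSL complex acetylates histones at promoters of widely expressed genes through its enzyme KAT8. Of the 7 transcripts grouped here as NSL, 3 were rows of KANSL1L, a relative of the subunit KANSL1, and KAT8 was counted under MYST. Of these 7 transcripts 2 were higher in INC in the VmT (28.6%, against 3.1% of all transcripts). KANSL2, a core subunit of the complex, had 114, 103, 123, 144 and 115 normalized counts in VmT libraries of INC, against 66.2, 51.0, 48.3 and 60.4 in those of TE. The groups did not overlap, and the means were 119.8 ± 15.3 in INC (SD, n = 5) and 56.5 ± 8.32 in TE (SD, n = 4). The log2 fold change was 1.07 (SE, the standard error, 0.16, limma adjusted p = 0.00082), from 55 to 184 reads a library. All means below are given with their SD over the same numbers of libraries.

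In the HYPO the order of the stages was the opposite. KANSL2 had 77.5, 69.7, 73.8, 49.1 and 58.0 normalized counts in HYPO libraries of INC and 107, 99.4, 109 and 114 in those of TE, again without overlap. The log2 fold change was -0.72 (SE 0.16, adjusted p = 0.0376). In the HB its means were 73.7 ± 5.90 in INC and 77.8 ± 17.2 in TE (log2 fold change -0.05, adjusted p = 1). The VmT call held in every alternative run except the fit of the VmT alone (adjusted p = 0.111). The HYPO call was lost with the female as a replicate block (0.0536), which leaves 0 members called in the HYPO, in the fit of the HYPO alone (0.0551), and without any single library of 7 (adjusted p = 0.0577 to 0.128), in the HYPO INC females 85840, 85889 and 85899 and TE females 85674, 85689, 85691 and 85694.

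MCRS1, the microspherule protein that NSL shares with the INO80 remodelling complex, had 414, 369, 393, 400.1 and 381 normalized counts in VmT libraries of INC, against 232, 283, 238 and 307 in those of TE. Every INC library was above every TE library, with a log2 fold change of 0.57 (SE 0.11, adjusted p = 0.00345). In the HYPO MCRS1 had 348, 306, 269, 246 and 274 in INC and 382, 411, 352 and 342 in TE. The HYPO difference was -0.37 (adjusted p = 0.094), with 1 INC library inside the range of TE. MCRS1 was called lower there by DESeq2 (adjusted p = 0.0476) and by limma without HYPO INC female 85757 (0.022). In the VmT the call was lost with the score as a covariate (adjusted p = 0.0679) and without the 2 TE libraries of lowest score (0.0663).

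The other transcripts of the NSL group were not called in any region. KANSL1, the scaffold of the complex, averaged 184 ± 25.6 in INC and 171 ± 29.5 in TE in the VmT (log2 fold change 0.11). The most abundant of 3 rows of its relative KANSL1L averaged 212 ± 32.8 in INC and 208 ± 32.0 in TE (0.03). KANSL3 averaged 94.1 ± 21.3 in INC and 83.8 ± 28.0 in TE in the VmT (0.20), and 87.2 ± 12.4 in INC and 138 ± 30.2 in TE in the HYPO, where the libraries did not overlap (-0.64, adjusted p = 0.121).

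**Figure D2:**
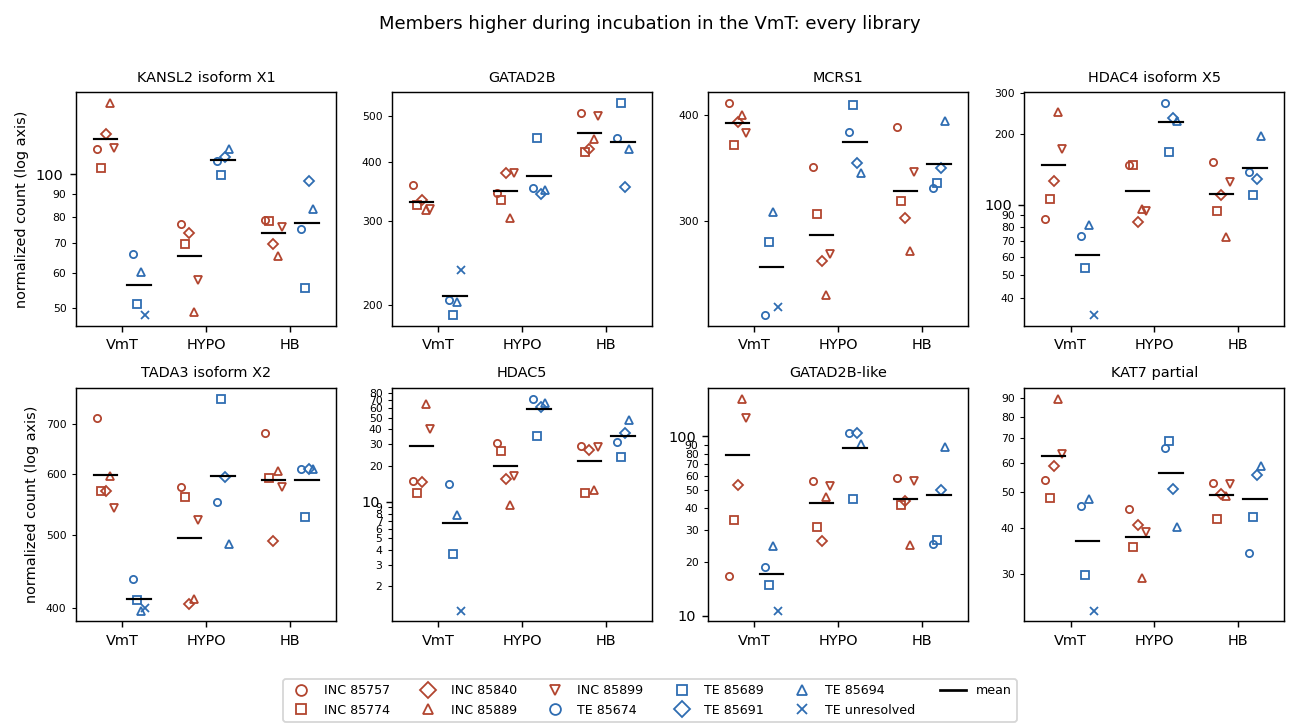
Normalized counts (log axis) of the 8 members called higher in INC in the VmT, in every library of the VmT, HYPO and HB, with INC in red left of TE in blue, a marker for each female and a bar at the mean. For KANSL2, GATAD2B, MCRS1, HDAC4, TADA3 and KAT7 each VmT library of INC lies above each of TE, and for HDAC5 and GATAD2B-like the INC females 85889 and 85899 lie far above the other 3.

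Of the 11 MYST transcripts, KAT7 was called in the VmT (9.09% higher in INC, against 3.1% of all transcripts). KAT7 (HBO1), an enzyme known for its part in the licensing of replication origins, had 53.8, 48.2, 58.7, 89.4 and 63.4 normalized counts in VmT libraries of INC and 45.7, 29.7, 23.8 and 47.8 in those of TE. The lowest INC library and the highest TE library nearly touched (log2 fold change 0.78, SE 0.22, adjusted p = 0.0461). In the HYPO KAT7 had 45.1, 35.4, 40.6, 29.3 and 39.0 in INC and 65.8, 68.6, 50.8 and 40.1 in TE (-0.54, adjusted p = 0.231). The VmT call of KAT7 was lost with TMM scaling (0.0588), quantile normalization (0.0873), edgeR (0.0506), the replicate block (0.0625), and the score (0.386) or the summed low transcripts (0.109) as a covariate. It was lost without the 2 TE libraries of lowest score (0.17) and without INC females 85889 and 85899 (0.23). It was also lost in 16 of 27 fits without 1 library (adjusted p = 0.0515 to 0.186), in the VmT INC females 85840, 85889 and 85899 and TE female 85689 and the unresolved TE library, in the HYPO INC females 85774, 85840 and 85899 and TE female 85691, in the HB INC females 85757, 85774, 85840, 85889 and 85899 and TE females 85689 and 85691.

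KAT5 (TIP60), the enzyme of the NuA4 complex, had 138, 159, 119.6, 160.0 and 133 normalized counts in its main row, isoform X2, in VmT libraries of INC, against 112, 135, 99.1 and 95.5 in those of TE (log2 fold change 0.37, adjusted p = 0.19). In the HYPO KAT5 had 99.99, 101.0, 66.5, 101.3 and 83.1 in INC and 115, 103, 106 and 120.4 in TE, with every INC library below every TE library (-0.31, adjusted p = 0.329). Neither difference passed the test. MRGBP, a NuA4 subunit that binds MORF4-related proteins, averaged 1212 ± 202 in INC and 1224 ± 33.9 in TE in the VmT (-0.03).

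KAT8 itself was not called with all libraries. KAT8 was called higher in INC in the VmT in isoform X1 without VmT TE female 85674 (limma adjusted p = 0.0404). The same row was called without the 2 TE libraries of lowest score (0.048). Its more abundant row, KAT8-like, averaged 97.0 ± 10.7 in INC and 80.4 ± 10.1 in TE in the VmT (log2 fold change 0.27, adjusted p = 0.554), and isoform X1 25.1 ± 7.81 in INC and 13.6 ± 8.75 in TE (0.99, adjusted p = 0.142). KAT6A (MOZ) averaged 118 ± 43.1 in INC and 107 ± 13.5 in TE (0.04), and the most abundant of 5 rows of KAT6B (MORF), isoform X4, 55.4 ± 6.68 in INC and 53.4 ± 1.27 in TE (0.04). EP300, the coactivator p300, averaged 61.0 ± 30.1 in INC and 48.6 ± 6.71 in TE (0.20).

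The GNAT enzymes were not called either. KAT2A (GCN5) averaged 332 ± 31.5 in INC and 314 ± 36.9 in TE in the VmT (log2 fold change 0.08). KAT2B (PCAF) averaged 529.5 ± 22.4 in INC and 525 ± 85.1 in TE in its more abundant row (0.02). HAT1, which acetylates newly made histones before they reach chromatin, averaged 249.8 ± 38.5 in INC and 283 ± 27.3 in TE (-0.19). In the HYPO and HB the 4 transcripts of KAT2A, KAT2B and HAT1 had log2 fold changes between -0.15 and 0.08.

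KAT2A and KAT2B work through the adapters of SAGA and ATAC. Of 7 adapter transcripts 1 was called, higher in INC in the VmT (14.3%, against 3.1% of all transcripts). TADA3, present in both complexes, had 711, 571, 571, 597 and 543 normalized counts in its main row, isoform X2, in VmT libraries of INC, against 437, 409, 400.04 and 397 in those of TE. The groups did not overlap, and the TE libraries lay close together (599 ± 65.9 in INC, 411 ± 18.1 in TE). The log2 fold change was 0.54 (SE 0.12, adjusted p = 0.0109), and 0.53 (adjusted p = 0.0111) when its 3 rows were summed, a check added once the values were known. In the HYPO TADA3 had 577, 559.7, 404, 412 and 522 in INC and 552, 755, 595 and 486 in TE (-0.27, adjusted p = 0.302). The VmT call was lost with the score as a covariate (adjusted p = 0.137) and without the 2 TE libraries of lowest score (0.0791).

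SGF29, the subunit that reads methylated histone tails for both complexes, was low and spread widely. It had 10.2, 22.3, 7.34, 65.1 and 44.5 normalized counts in VmT libraries of INC and 3.73, 7.42, 1.88 and 13.6 in those of TE, with 3 to 83 reads a library (log2 fold change 1.85, adjusted p = 0.073). INC females 85889 and 85899 had the highest values. SGF29 was called higher in INC in the VmT by DESeq2 (2.22, adjusted p = 0.0115). In the HYPO SGF29 had 25.4, 31.3, 7.28, 8.36 and 18.2 in INC and 24.5, 26.3, 70.4 and 49.2 in TE, with overlap (-1.26, adjusted p = 0.307).

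The remaining adapters did not pass the test. TADA1 of SAGA averaged 205 ± 24.8 in INC and 195 ± 31.6 in TE in the VmT (log2 fold change 0.08). TADA2A of ATAC averaged 323 ± 35.6 in INC and 371 ± 54.7 in TE (-0.19). TADA2B of SAGA averaged 105 ± 7.16 in INC and 120.2 ± 7.63 in TE, and all 5 INC libraries lay below the 4 of TE (-0.19, adjusted p = 0.557).

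NuRD joins histone deacetylation to the CHD remodelling motor. Of its 9 transcripts 2, both with a GATAD2B title, were called higher in INC in the VmT (22.2%, against 3.1% of all transcripts). GATAD2B, one of its p66 subunits, had 358, 326, 333, 317 and 318 normalized counts in VmT libraries of INC, against 204, 190.3, 237 and 203 in those of TE. The groups did not overlap (330.2 ± 16.8 in INC, 209 ± 19.96 in TE), with a log2 fold change of 0.66 (SE 0.11, adjusted p = 0.00117). In the HYPO GATAD2B had 344, 333, 379.5, 305 and 380.0 in INC and 353, 449, 343 and 349.6 in TE (-0.10, adjusted p = 0.774), and in the HB it averaged 461 ± 40.8 in INC and 442 ± 73.5 in TE (0.07). The VmT call held in every alternative run except the fit of the VmT alone (adjusted p = 0.111).

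The second transcript with a GATAD2B title varied more between females. GATAD2B-like had 16.7, 34.1, 53.5, 162 and 127 normalized counts in VmT libraries of INC and 18.7, 14.8, 10.7 and 24.4 in those of TE (log2 fold change 1.76, SE 0.47, adjusted p = 0.0339). INC female 85757 lay inside the range of TE, and females 85889 and 85899 had the highest values. In the HYPO GATAD2B-like had 56.3, 31.3, 25.99, 46.0 and 52.8 in INC and 104, 44.6, 104 and 90.6 in TE (-0.98, adjusted p = 0.338). The call was lost with no trend in the variance (0.0535), adjusted for the score or for the summed low transcripts (0.333 and 0.216), without the 2 TE libraries of lowest score (0.192), without INC females 85889 and 85899 (0.31), and without any single library of 6 (0.0534 to 0.109), in the VmT INC females 85840, 85889 and 85899 and TE females 85674 and 85689 and the unresolved TE library.

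GATAD2A, the other p66 protein, averaged 32.1 ± 6.39 in INC and 21.04 ± 3.53 in TE in the VmT (log2 fold change 0.58, adjusted p = 0.249). The MTA proteins hold the deacetylases in NuRD. MTA1 averaged 487 ± 23.0 in INC and 521 ± 109 in TE in its most abundant row, isoform X2 (-0.08), and MTA3 64.7 ± 14.1 in INC and 63.3 ± 12.6 in TE in isoform X2 (0.02). MTA2 had 41.7, 36.4, 55.6, 51.8 and 28.9 normalized counts in VmT libraries of INC and 28.9, 25.1, 18.2 and 40.9 in those of TE, with overlap (0.60, adjusted p = 0.232). In the HYPO MTA2 had 28.2, 37.4, 25.99, 28.2 and 19.0 in INC and 65.8, 42.3, 28.7 and 38.8 in TE, with overlap (-0.61, adjusted p = 0.25). In the HB MTA2 averaged 25.2 ± 4.60 in INC and 40.6 ± 9.29 in TE, and the INC libraries lay below those of TE (-0.66, adjusted p = 1).

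Class IIa deacetylases bind the transcription factor MEF2 and bring corepressors to it. Of their 11 transcripts 2 were called higher in INC in the VmT (18.2%, against 3.1% of all transcripts). HDAC4, in isoform X5, had 87.2, 106, 126, 249 and 173 normalized counts in VmT libraries of INC, against 73.7, 53.8, 33.9 and 81.9 in those of TE. The groups did not overlap, though INC spread more than TE (148 ± 64.7 in INC, 60.8 ± 21.5 in TE). The log2 fold change was 1.25 (SE 0.28, adjusted p = 0.00964). In the HYPO HDAC4 had 148, 148, 84.2, 96.1 and 94.4 in INC and 271, 167, 235 and 228 in TE, with every INC library below every TE library, a difference that did not pass the test (-0.99, adjusted p = 0.0763). HDAC4 was called lower there by DESeq2 (adjusted p = 0.0372) and in the limma fit of the HYPO alone (0.0397). By limma it was also called without HYPO INC female 85757 (0.0297) and without the VmT libraries of INC females 85889 and 85899 (0.0431). In the VmT the call was lost without the unresolved library (0.0563), adjusted for the score or for the summed low transcripts (0.107 and 0.0786), without the 2 TE libraries of lowest score (0.0639) and without INC females 85889 and 85899 (0.115).

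HDAC5 showed the same order of stages at low counts. It had 14.8, 11.8, 14.7, 65.1 and 40.0 normalized counts in VmT libraries of INC and 13.99, 3.71, 1.25 and 7.80 in those of TE, with 2 to 83 reads a library. INC females 85889 and 85899 had the highest values, and the other 3 lay around the highest TE library. The log2 fold change was 1.99 (SE 0.48, adjusted p = 0.0181), and 0.79 (adjusted p = 0.158) when its 2 rows were summed. In the HYPO HDAC5 had 31.0, 26.3, 15.6, 9.40 and 16.4 in INC and 71.7, 35.4, 61.2 and 66.03 in TE, without overlap (-1.58, adjusted p = 0.104). HDAC5 was called lower there by DESeq2 (adjusted p = 0.0476). By limma it was called in the fit of the HYPO alone (0.0451) and without HYPO INC female 85757 (0.0449). In the HB the means were 21.8 ± 8.86 in INC and 34.9 ± 10.2 in TE (-0.72, adjusted p = 1). The VmT call was lost adjusted for the score or for the summed low transcripts (0.112 and 0.105), without INC females 85889 and 85899 (0.186), and without any single library of 4 (0.0528 to 0.0975), in the VmT INC females 85889 and 85899 and TE female 85689 and the unresolved TE library.

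HDAC7 and HDAC9 complete the class. HDAC7-like, the more abundant of 2 rows of HDAC7, had 12.1, 15.3, 22.03, 54.1 and 28.9 normalized counts in VmT libraries of INC and 6.53, 21.3, 5.64 and 20.47 in those of TE, with overlap (log2 fold change 0.95, adjusted p = 0.281). In the HYPO HDAC7-like had 12.7, 18.2, 12.5, 6.27 and 8.66 in INC and 48.1, 27.4, 30.0 and 22.01 in TE, without overlap (-1.40, adjusted p = 0.113). HDAC9 had 6 rows, of which the most abundant, isoform X3, averaged 260.4 ± 32.9 in INC and 231 ± 61.7 in TE in the VmT (0.20). Its isoform X10 averaged 27.3 ± 8.16 in INC and 15.4 ± 4.75 in TE (0.79, adjusted p = 0.0832).

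The deacetylases of the other classes had 0 calls between stages in any region in the limma fit of all 6 groups. Of class I, HDAC2, an enzyme of NuRD, SIN3 and CoREST, averaged 419 ± 60.5 in INC and 436 ± 48.7 in TE in the VmT in isoform X1 (log2 fold change -0.06), and HDAC3, the enzyme of the NCoR corepressor, 321 ± 30.3 in INC and 383 ± 53.3 in TE (-0.25, adjusted p = 0.196). HDAC10 of class IIb, known as a polyamine deacetylase, averaged 339 ± 112 in INC and 369 ± 112 in TE (-0.12). HDAC11 of class IV averaged 532 ± 74.6 in INC and 528 ± 47.8 in TE in the VmT (0.01), and 550.0 ± 38.9 in INC and 471 ± 35.8 in TE in the HYPO (0.22, adjusted p = 0.288).

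Among the sirtuins, SIRT1, a nuclear deacetylase of histones and transcription factors, averaged 922 ± 76.1 in INC and 833 ± 80.1 in TE in the VmT (log2 fold change 0.15). SIRT1 had log2 fold changes of 0.10 in the HYPO and 0.23 in the HB. SIRT6, which acts on chromatin, averaged 92.8 ± 16.2 in INC and 87.6 ± 3.53 in TE in the VmT (0.07), and 79.7 ± 17.3 in INC and 106 ± 8.43 in TE in the HYPO (-0.42, adjusted p = 0.197). SIRT7, a nucleolar sirtuin, averaged 218 ± 33.4 in INC and 234 ± 15.6 in TE in the VmT (-0.12). SIRT2-like had at most 20 reads in any library, and the mitochondrial SIRT3 at most 3.

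The subunits of SIN3 had small fold changes between stages. SAP18 averaged 2775 ± 680.2 in INC and 2707 ± 202 in TE in the VmT (log2 fold change 0.01), SAP30 270.3 ± 76.2 in INC and 251 ± 64.0 in TE (0.10), and SAP30L 224 ± 21.8 in INC and 201 ± 17.1 in TE (0.15). SAP130 averaged 335 ± 57.8 in INC and 332 ± 20.7 in TE (-0.01), and SUDS3 257 ± 35.6 in INC and 229 ± 5.38 in TE (0.16). In the HYPO and HB the 5 SIN3 subunits, SAP18, SAP30, SAP30L, SAP130 and SUDS3, had log2 fold changes between -0.17 and 0.14.

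The difference between stages was then compared between regions. Between the VmT and the HYPO it differed for 12 members, each time with the VmT value above the HYPO value, and for 0 in the other direction. That is 17.9% of the 67, against 5.28% of all transcripts in that direction and 0.673% in the other. For KANSL2 the log2 fold change in the VmT exceeded that in the HYPO by 1.79 (SE 0.22, adjusted p = 0.00011), for MCRS1 by 0.94 (0.16, adjusted p = 0.00039), for HDAC4 by 2.24 (0.39, adjusted p = 0.00061) and for HDAC5 by 3.58 (0.68, adjusted p = 0.00146). For GATAD2B it was higher by 0.76 (0.15, adjusted p = 0.00228), for TADA3 by 0.80 (0.17, adjusted p = 0.00381), for KAT7 by 1.32 (0.31, adjusted p = 0.00883) and for GATAD2B-like by 2.74 (0.66, adjusted p = 0.0105). The other 4 had not been called between stages in either region by limma over all 27 libraries. SGF29 differed by 3.11 (0.81, adjusted p = 0.0189), HDAC7-like by 2.35 (0.62, adjusted p = 0.0193), MTA2 by 1.21 (0.36, adjusted p = 0.0423) and KAT5 by 0.67 (0.21, adjusted p = 0.0481). All 12 had a log2 fold change above 0 in the VmT and below 0 in the HYPO.

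**Figure D3:**
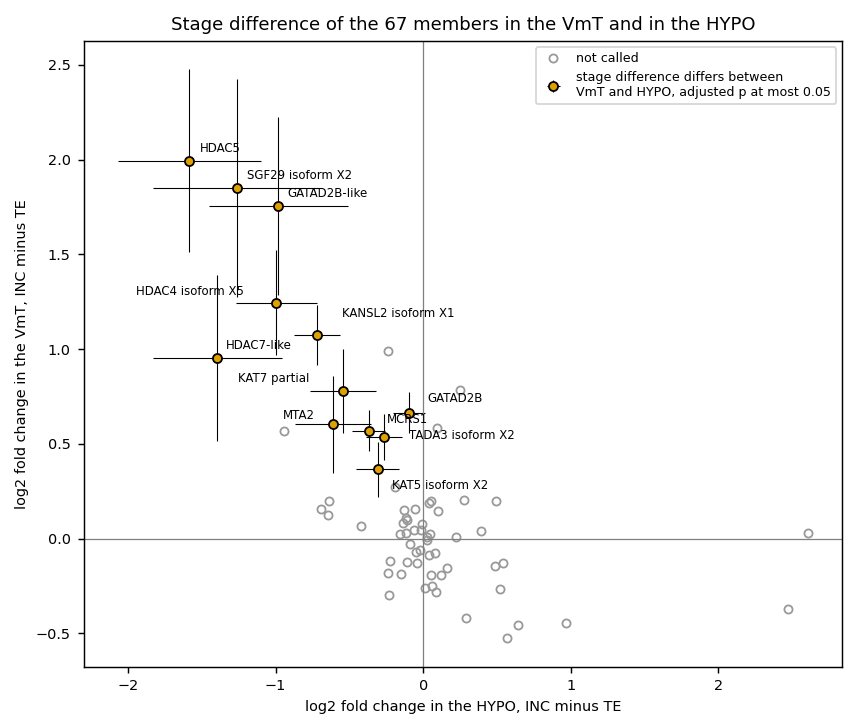
Log2 fold change between stages (INC minus TE) in the VmT against that in the HYPO for the 67 members. Filled points with bars of 1 standard error are the 12 members whose stage difference differed between the regions, all above 0 in the VmT and below 0 in the HYPO.

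The first 6 of these 12, KANSL2, MCRS1, HDAC4, HDAC5, GATAD2B and TADA3, kept their call in every alternative that tested them. All of these alternatives pooled the spread over the regions, since a fit of 1 region alone cannot hold this contrast. Summed over its 2 rows, HDAC5 differed by 1.66 (adjusted p = 0.0143), against 3.58 for its main row. With the score as a covariate 7 of the 12 remained, against 3.27% of all transcripts called. KAT7 lost its call there (adjusted p = 0.0655), as did GATAD2B-like (0.074), SGF29 (0.0542), HDAC7-like (0.106) and MTA2 (0.143). Adjusted for the summed low transcripts 7 members were higher and 2 lower, against 4.24% and 2.16% of all transcripts. The call was lost there for GATAD2B-like (0.0544), SGF29 (0.0709), HDAC7-like (0.0741), MTA2 (0.103) and KAT5 (0.119), and those lower were MTA3 isoform X1 (-1.56, adjusted p = 0.0117) and MTA1 (-0.59, adjusted p = 0.0434), both subunits of NuRD. Without INC females 85889 and 85899 the call was lost for GATAD2B-like (0.0611), SGF29 (0.107), HDAC7-like (0.0987), MTA2 (0.0571) and KAT5 (0.114). It was lost for SGF29 and MTA2 without the 2 TE libraries of lowest score, and for MTA2 with quantile normalization. SGF29 also lost it without either of 2 single libraries (0.0521 to 0.0555), in the VmT the unresolved TE library, in the HYPO TE female 85691, and HDAC7-like without either of 2 (0.0514 to 0.0576), in the VmT the unresolved TE library, in the HYPO TE female 85674. MTA2 lost it in 11 of 27 fits without 1 library (0.0549 to 0.114), in the VmT INC females 85840 and 85889 and TE females 85674 and 85689 and the unresolved TE library, in the HYPO INC females 85840, 85889 and 85899 and TE females 85674, 85689 and 85694. KAT5 lost it in 17 (0.0532 to 0.102), in the VmT INC females 85774, 85889 and 85899 and TE females 85674 and 85694 and the unresolved TE library, in the HYPO INC females 85840 and 85899 and TE females 85674, 85689, 85691 and 85694, in the HB INC females 85774, 85889 and 85899 and TE females 85689 and 85691, and with TMM scaling (0.057) and edgeR (0.0597).

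Between the VmT and the HB the stage difference differed for 2 members, KANSL2 by 1.13 (SE 0.22, adjusted p = 0.0301) and MCRS1 by 0.68 (0.16, adjusted p = 0.0403), both higher in the VmT. That is 2.99% of the 67, against 0.437% of all transcripts. In the HB KANSL2 had 78.9, 78.4, 69.6, 65.5 and 76.0 normalized counts in INC and 75.3, 55.6, 96.7 and 83.7 in TE. MCRS1 had 388, 317, 303, 276 and 343 in INC and 328, 333, 346 and 394 in TE, and both overlapped between stages. With the female as a replicate block 6 members were called, which added GATAD2B, HDAC4, HDAC5 and MTA2, while the share of all transcripts called came to 1.32%. With the score as a covariate 0 members and 0% of all transcripts were called. KANSL2 lost its call without any single library of 9 (adjusted p = 0.0523 to 0.123), in the VmT INC females 85889 and 85899 and TE female 85689 and the unresolved TE library, in the HB INC females 85774, 85840 and 85889 and TE females 85691 and 85694. MCRS1 lost it without any of 16 (0.0512 to 0.154), in the VmT INC females 85840, 85889 and 85899 and TE females 85674 and 85689 and the unresolved TE library, in the HYPO INC female 85899 and TE female 85691, in the HB INC females 85774, 85840, 85889 and 85899 and TE females 85674, 85689, 85691 and 85694. Between the HYPO and the HB 0 members differed by limma, as did 0% of all transcripts, with 0 calls of members by edgeR or DESeq2. Over all 19473 transcripts edgeR called 31 higher and 0 lower there, and DESeq2 153 higher and 2 lower. Of the 67 members 4 had an unadjusted limma p under 0.05 there, as did 1213 of 19473 transcripts.

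Levels also differed between regions, averaged over the stages. Set against the HYPO, 11 members were higher in the VmT and 6 lower (16.4% and 8.96%, against 11.7% and 14.1% of all transcripts). Against the HB, 15 were higher in the VmT and 7 lower (22.4% and 10.4%, against 17.6% and 25.7%). Between the HYPO and the HB 0 were higher in the HYPO and 4 lower (0% and 5.97%, against 5.33% and 7.05%). With TMM scaling, all transcripts split into 2724 higher and 2442 lower between the VmT and the HYPO, against 2281 and 2753 in the main scaling, and the members into 12 and 6. Between the VmT and the HB all transcripts split into 4288 higher and 4160 lower, against 3435 and 5007, and the members into 18 and 5. Between the HYPO and the HB they split into 1289 and 1087, against 1037 and 1373, and the members into 3 and 4. Oligodendrocyte markers moved with the regions too: 3 of them summed to 9256 to 17976 normalized counts in the VmT, 18566 to 36555 in the HYPO and 33247 to 52515 in the HB, and their part in these differences was not tested.

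SAP30L, a SIN3 subunit related to SAP30, had a separate range in each region. In the VmT it had 194, 215, 253, 225 and 233 normalized counts in INC and 186, 190.3, 206 and 223 in TE. In the HYPO it had 352, 300.1, 359.8, 350.0 and 377 in INC and 339, 385, 410.4 and 385 in TE, and in the HB 539, 580.3, 486, 485 and 552 in INC and 612, 584, 560.4 and 617 in TE. No library of a region overlapped with those of another. The log2 difference of SAP30L was -0.77 for VmT minus HYPO (SE 0.07, adjusted p = 6.4e-10), -1.40 for VmT minus HB (adjusted p = 6.2e-16) and -0.62 for HYPO minus HB (adjusted p = 5.5e-08), and held in every alternative run. SAP30 had the same order of means, 262 ± 67.4 in the VmT, 303 ± 29.9 in the HYPO and 384 ± 28.5 in the HB (SD, 9 libraries each), with a log2 difference of -0.59 for VmT minus HB (adjusted p = 4.6e-05) and -0.34 for HYPO minus HB (adjusted p = 0.0326). The last call was lost with edgeR (0.0519) and without any single library of 6 (0.0521 to 0.0793), in the HYPO INC females 85774 and 85899 and TE female 85674, in the HB INC female 85757 and TE females 85689 and 85691.

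**Figure D4:**
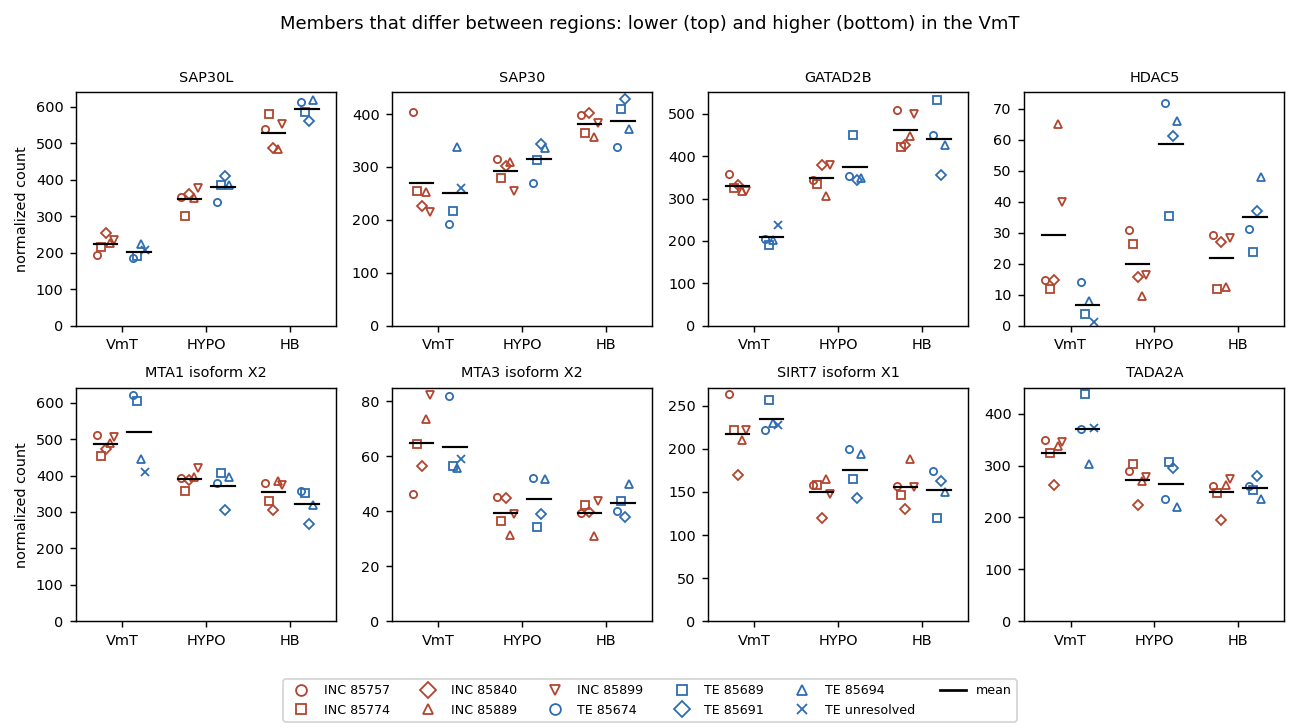
Normalized counts (axis from 0) of 8 members that differed between regions, in every library of the VmT, HYPO and HB, with INC in red left of TE in blue, a marker for each female and a bar at the mean of the stage. In the upper row SAP30L takes a separate range in each region, and in the lower row MTA1, MTA3, SIRT7 and TADA2A average highest in the VmT.

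Other members lower in the VmT were GATAD2B and class IIa deacetylases. GATAD2B averaged 276 ± 66.3 in the VmT, 359.6 ± 40.5 in the HYPO and 452 ± 54.4 in the HB. Its log2 difference was -0.45 for VmT minus HYPO (adjusted p = 4.9e-05), -0.77 for VmT minus HB (adjusted p = 2.9e-09) and -0.32 for HYPO minus HB (adjusted p = 0.00514). In TE every VmT library of GATAD2B lay below every HYPO library, but in INC the libraries of these regions overlapped. HDAC5 averaged 19.2 ± 20.48 in the VmT, 37.0 ± 23.5 in the HYPO and 27.6 ± 11.2 in the HB (-1.45 for VmT minus HYPO, adjusted p = 0.00217, and -1.15 for VmT minus HB, adjusted p = 0.00747). With its 2 rows summed these were -0.89 (adjusted p = 0.00207) and -0.51 (adjusted p = 0.0471). The order of the regions was not the same in both stages. In INC HDAC5 averaged 29.3 ± 23.1 in the VmT, 19.7 ± 8.72 in the HYPO and 21.8 ± 8.86 in the HB, and in TE 6.69 ± 5.57 in the VmT, 58.6 ± 16.0 in the HYPO and 34.9 ± 10.2 in the HB, so that the VmT had the lowest mean in TE alone. HDAC4 was lower in the VmT than in the HYPO over both stages (-0.80, adjusted p = 0.00269), but its mean was lower in TE alone. In INC HDAC4 averaged 148 ± 64.7 in the VmT and 114 ± 31.1 in the HYPO, and in TE 60.8 ± 21.5 in the VmT and 225 ± 43.2 in the HYPO. HDAC9 was lower in isoform X3, by a log2 difference of -0.36 against the HYPO (adjusted p = 0.00414) and -0.36 against the HB (adjusted p = 0.00183), and in isoform X10 against the HYPO (-0.57, adjusted p = 0.0187). The isoform X10 call was lost with quantile normalization (0.0586), without the 2 TE libraries of lowest score (0.172) and without the VmT library of TE female 85689 (0.0503). HDAC11 averaged 515 ± 54.7 in the HYPO and 619 ± 56.2 in the HB (HYPO minus HB -0.28, adjusted p = 0.00768).

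MTA subunits of NuRD, SIRT7 and TADA2A were higher in the VmT. MTA1 averaged 502 ± 70.7 in the VmT, 383 ± 33.8 in the HYPO and 341 ± 39.3 in the HB in isoform X2, a log2 difference of 0.39 for VmT minus HYPO (adjusted p = 0.00075) and 0.57 for VmT minus HB (adjusted p = 2.7e-06). Another row of MTA1 differed by 0.41 for VmT minus HYPO (adjusted p = 0.00383). MTA3 differed by 0.60 for VmT minus HYPO in isoform X2 (adjusted p = 0.0011) and 0.61 for VmT minus HB (adjusted p = 0.00043), and by 0.74 (adjusted p = 0.00634) and 0.68 (adjusted p = 0.0069) in isoform X1. SIRT7 averaged 225 ± 26.95 in the VmT, 161 ± 24.8 in the HYPO and 154 ± 20.9 in the HB (0.48 for VmT minus HYPO, adjusted p = 0.00049, and 0.56 for VmT minus HB, adjusted p = 3.4e-05). TADA2A averaged 344 ± 48.8 in the VmT, 269 ± 33.9 in the HYPO and 252 ± 25.1 in the HB (0.37 for VmT minus HYPO, adjusted p = 0.00267, and 0.45 for VmT minus HB, adjusted p = 0.00015). Without the 2 TE libraries of lowest score, MTA3 isoform X1 lost both calls (0.0878 and 0.0851), and the other row of MTA1 lost its call (0.0715).

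TADA3 isoform X1 was called higher in the VmT than in the HB (1.09, adjusted p = 0.00394), but it had at most 5 reads in a library. Summed over its 3 rows, TADA3 was lower in the VmT than in the HB (-0.24, adjusted p = 0.0235). Its isoform X2 averaged 599 ± 65.9 in the VmT and 589.8 ± 68.2 in the HB in INC, and 411 ± 18.1 in the VmT and 589 ± 41.5 in the HB in TE, so that the VmT had the lower mean in TE only.

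The proteins that work with these members were listed separately, as 128 genes of which 106 were measured. In the VmT 5 of the 106 were higher in INC (4.72%, against 3.1% of all transcripts) and 0 were lower. The alternative fits were read for the members only, so how far the calls of these listed genes hold was not tested. Over all transcripts, those called higher in INC in the VmT fell from 604 to 43 with the score as a covariate. In the fit of the VmT alone they fell to 3. MSL1, the scaffold of the other KAT8 complex, averaged 739.5 ± 76.1 in INC and 571 ± 81.0 in TE (log2 fold change 0.38, adjusted p = 0.029). ATXN7L3 of the SAGA deubiquitinase module averaged 302 ± 43.4 in INC and 194 ± 40.6 in TE (0.65, adjusted p = 0.0109), and RUVBL2, a helicase of NuA4 and INO80, 88.4 ± 30.7 in INC and 49.8 ± 12.02 in TE (0.78, adjusted p = 0.0486). CHD3, a remodelling motor of NuRD, averaged 367 ± 96.2 in INC and 233 ± 57.5 in TE (0.65, adjusted p = 0.0292), and HMG20B of the CoREST corepressor 233 ± 39.0 in INC and 133 ± 12.3 in TE (0.80, adjusted p = 0.00223). In the HYPO 1 of the 106 was lower in INC (0.943%, against 0.293% of all transcripts) and 0 were higher (0.221% of all transcripts). It was BRD8, the bromodomain subunit of NuA4, with 623 ± 52.7 in INC and 779 ± 19.5 in TE (-0.33, adjusted p = 0.0392). The stage difference of 10 of the 106 was higher in the VmT than in the HYPO and that of 0 was lower (9.43%, against 5.28% of all transcripts higher). They included the 6 genes just named, TAF6L and TAF10 of SAGA, and CAMK2B, a kinase of class IIa deacetylases. Among 7 measured enzymes of acetyl-CoA supply limma called 0 between stages in any region, and 5 were lower in the VmT and 4 lower in the HYPO than in the HB, against 25.7% and 7.05% of all transcripts.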

How the data were processed

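The deposited table holds signal values that the authors made from paired reads of stranded mRNA libraries: Trimmomatic 0.36, Bowtie2 2.3.4.1 against the tree swallow transcriptome, Samtools 1.3.1 for proper pairs, counts per transcript, and size factors from DESeq2 1.16.1. All values of a library are whole multiples of 1 step (100% within a tolerance of 0.1), so they are reads divided by a size factor, with no division by length although the table is called FPKM, and whole reads were recovered from the steps. Of 30 samples in the labels 27 had a column and 3 were not analysed here.

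Values were taken as log2(value + 1) and fitted in limma 3.58.1 (R 4.3.3) with a trend in the variance and 1 mean for each of 6 groups, for the 19473 transcripts with at least 1 in at least 4 libraries, with Benjamini-Hochberg adjustment over all of them. edgeR 4.0.16 (TMM scaling and the quasi-likelihood test) and DESeq2 1.42.0 on whole reads, other pseudocounts (0.5 and 5), filters and scalings, fits of 1 region, covariates and fits without each library were run as alternatives. The fit was tested on simulated counts, drawn independently for each library with the same dispersion in every group. That test does not cover a region of larger spread or libraries that share a female. The score is the mean log2 level of 19 thalamus and midbrain markers. Libraries of 1 female are paired across regions by the labels. Their deviations correlated at -0.22 to 0.38 (median 0.14, 25 pairs), against a median of -0.03 between different females, and the consensus correlation of the block was 0.20. INC and TE share no female, so a stage contrast within a region compares different females. The spread behind its p-value was estimated over all 6 groups, and so from libraries of the same females in different regions. The main fit treated these libraries as independent. Contrasts between regions, and of stage differences, compare libraries of the same females directly, again treated as independent. With the female as a block the members called between the VmT and the HYPO went from 17 to 23. Those between the VmT and the HB went from 22 to 30. The calls over all transcripts rose too, from 2281 higher and 2753 lower to 2744 and 3396 between the VmT and the HYPO. Between the VmT and the HB they went from 3435 higher and 5007 lower to 3851 and 5610.

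Members and gene lists were chosen with earlier results of these data known. Members named are those called between stages or in a difference of stages, the 5 with the largest region differences in each direction, and the most abundant row of each gene of a role. Those outside this rule were chosen after their values were seen. No reference genome was used here, so no sequence is shown. The result of 1 listed gene is not reported here.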

Additional observations from a re-analysis of the deposited data

Results flagged for a closer look

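In 72 groups of 4 or 5 libraries, over the 12 members called between stages or in a difference of stages, 2 had a library far from the others by Dixon's criterion, which chance exceeds in about 1 in 20 groups. For GATAD2B the HYPO library of TE female 85689 had 449 normalized counts, and the nearest of the other 3 had 353. For TADA3 isoform X2 the HB library of the same female had 527, and the nearest of the others 609.

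The stage difference (INC minus TE, log2) differed between regions by a test of the difference itself. Between the VmT and the HYPO it was higher in the VmT by 1.79 for KANSL2, 0.94 for MCRS1, 2.24 for HDAC4, 3.58 for HDAC5, 0.76 for GATAD2B, 0.80 for TADA3 isoform X2, 1.32 for KAT7, 2.74 for GATAD2B-like, 3.11 for SGF29, 2.35 for HDAC7-like, 1.21 for MTA2 and 0.67 for KAT5 isoform X2. Between the VmT and the HB it was higher in the VmT by 1.13 for KANSL2 and 0.68 for MCRS1.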

How the results depend on the processing

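Counts of called members under the alternatives are given beside the main count. Between stages in the VmT (8) they were 0 in the fit of the VmT alone, 2 with the score as a covariate, 5 adjusted for the summed low transcripts (4 higher and 1 lower), 4 without the 2 TE libraries of lowest score, 4 without INC females 85889 and 85899, and 4 to 10 without 1 library. In the HYPO (1) they were 0 under a replicate block for the female, 5 by DESeq2 (1 higher and 4 lower), 3 in the fit of the HYPO alone (1 higher and 2 lower), 3 without the VmT libraries of INC females 85889 and 85899, and 0 to 6 without 1 library (6 without the HYPO library of INC female 85757). Over all transcripts 43 were called higher and 57 lower in the HYPO in the main fit, and 17 and 23 under the block. They were 235 and 210 by DESeq2, 68 and 168 in the fit of the HYPO alone, and 70 and 177 without those 2 VmT libraries. Between the VmT and the HYPO (17) the count was 10 without the 2 TE libraries of lowest score and 14 to 21 without 1 library, between the VmT and the HB (22) 20 to 26, and between the HYPO and the HB (4) 7 with TMM scaling, 7 with DESeq2 and 3 to 6. Without those 2 libraries 1464 of all transcripts were higher and 1696 lower between the VmT and the HYPO. By DESeq2 1305 were higher and 1298 lower between the HYPO and the HB. For the stage difference between the VmT and the HYPO (12) the count came to 7 when only transcripts averaging 50 or more were tested, where 40 members were tested, 7 with the score as a covariate, 7 without INC females 85889 and 85899, and 8 to 13 without 1 library. Over all transcripts 1028 were higher and 131 lower in the main fit, and 643 and 72 among the 11797 averaging 50 or more. They were 614 and 22 with the score, and 679 and 94 without those 2 females. For the stage difference between the VmT and the HB (2) the count was 1 with TMM scaling, no trend or edgeR, 6 with the replicate block or DESeq2, 0 with either covariate, without the 2 TE libraries of lowest score or without INC females 85889 and 85899, and 0 to 5 without 1 library. Over all transcripts 85 were higher and 0 lower there in the main fit, 253 and 4 with the block, and 322 and 3 by DESeq2. In the HB, and for the stage difference between the HYPO and the HB, the count of members was 0 in each. The replicate block changed no other count by more than 1.5 times. The only reversed direction was that of TADA3 isoform X1 between the VmT and the HB, -0.24 when its rows were summed. The causes were not tested. The alternatives without 2 libraries and the sums of rows were added after the data were seen. Transcripts of a few reads limit HDAC5, SGF29 and the minor rows.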

Other observations

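Transcripts of very low count stood apart in the HYPO without passing the test in the fit of all 6 groups. HDAC2 isoform X2 had 2.82, 3.03, 13.5, 12.5 and 11.3 normalized counts in HYPO libraries of INC and 0.0, 2.29, 0.0 and 0.0 in those of TE (log2 fold change 2.61, limma adjusted p = 0.062), with at most 13 reads in any library. The groups did not overlap, and 3 of the 4 TE libraries were at 0. In the limma fit of the HYPO alone HDAC2 isoform X2 was called higher (adjusted p = 0.0498).

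SIRT2-like had 1.41, 9.09, 13.5, 18.8 and 17.3 normalized counts in HYPO libraries of INC and 0.0, 4.57, 1.303 and 0.0 in those of TE (2.47, limma adjusted p = 0.098), with at most 20 reads in any library. INC female 85757 lay inside the range of TE. By DESeq2 SIRT2-like was called higher in the HYPO (adjusted p = 0.0485). Both transcripts were chosen after their values were seen.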
